A study of Rattus norvegicus with 12 samples.

Results

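The nuclear-encoded subunits of oxidative phosphorylation were taken as the genes whose symbols begin with the subunit names of complex I (Nduf), complex II (Sdh), complex III (Uqcr), complex IV (Cox, subunits 4 to 8) or complex V (Atp5), without assembly factors (Ndufaf), pseudogenes and records with LOC symbols, and with at least 10 counts in at least 3 samples. Of the 84 symbols that matched, 81 of the 18483 genes in the table met the count minimum. They were 34 genes of complex I, 4 of complex II, 8 of complex III, 18 of complex IV and 17 of complex V. Ndufa4 was counted with complex IV, of which it is a subunit in spite of its name. Ndufa4l2, Ndufa10l1 and Cox7b2 stayed below the minimum, with no more than 8 counts in any sample. All 81 members passed the filter on low counts and were tested. The rule used symbols and a count minimum, not the direction of any change.

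Cultured neonatal rat ventricular myocytes (NRVMs) of Sprague-Dawley rats, grown in a serum-free medium with insulin, transferrin and selenium, had been transfected with a control siRNA (siNeg) or with siRNA against Slc39a2 (siSlc39a2), the gene of the zinc importer ZIP2, and were then left untreated or given the hypertrophic α1-adrenergic agonist phenylephrine (PE) for 36 h. RNA-seq was available for 3 samples in each of the 4 groups, with the PE-treated ones called siNeg PE and siSlc39a2 PE, and all groups carried an siRNA. Libraries held 24065539 to 28603854 counts. siRNA lowers a transcript without removing it, and a primary culture can hold cells other than myocytes. The paper lists a single siRNA for Slc39a2, so effects of the knockdown and of that siRNA sequence cannot be told apart.

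Slc39a2 itself had 50, 50 and 59 counts in siNeg, 95, 198 and 182 in siNeg PE, 21, 11 and 2 in siSlc39a2 and 31, 25 and 38 in siSlc39a2 PE. It was lower after siSlc39a2 without PE (log2 fold change -2.35 ± 0.46 SE, adjusted p = 0.00098) and with PE (-2.33 ± 0.38, adjusted p = 0.000224). Of 12 cardiomyocyte markers none was at 0 throughout, and their summed CPM (counts scaled to a common library size) was 59506 to 61334 in siNeg, 62853 to 67863 in siNeg PE, 47866 to 48911 in siSlc39a2 and 63728 to 67755 in siSlc39a2 PE. The cardiomyocyte sum was thus lowest after knockdown without PE, where 6 of the 12 markers were lower and 0 higher. Of all genes tested 26.4% were lower and 22.8% higher there. Summed CPM of 12 fibroblast markers was 14685 to 19539 in siNeg, 9897 to 12781 in siNeg PE, 5813 to 6119 in siSlc39a2 and 4127 to 5595 in siSlc39a2 PE. Like most of the subunits described here, the fibroblast sum was highest in siNeg and lowest in siSlc39a2 PE. The single markers did not all follow it. After knockdown 9 of 12 were lower and 1 higher, both without and with PE, against 26.4% and 28.1% of all genes lower. With PE 5 were lower and 2 higher in siNeg cells, and 4 lower and 3 higher after knockdown. Of all genes 25.7% and 29.3% were lower there. The sum of 10 macrophage markers was small, at 23.8 to 29.1 in siNeg, 15.9 to 16.9 in siNeg PE and 19.0 to 20.6 in siSlc39a2, and was also lowest in siSlc39a2 PE, at 12.6 to 14.8. For 7 smooth muscle markers it was 2399 to 2470 in siNeg, 1596 to 1965 in siNeg PE, 1137 to 1193 in siSlc39a2 and 1632 to 1744 in siSlc39a2 PE, while 10 endothelial markers stayed at 17.3 to 27.4. With PE in siNeg cells 4 of the 7 smooth muscle markers were lower and 2 higher. After knockdown without PE 6 were lower and 0 higher. Knockdown under PE gave 1 lower and 1 higher, and PE after knockdown 3 lower and 2 higher. Of 9 macrophage markers tested, 3 were lower and 0 higher with PE in siNeg cells. For them both knockdown comparisons gave 3 lower and 1 higher, and PE after knockdown 4 lower and 0 higher. The shares of all genes lower are those given above. No marker was at 0 throughout, and the part of these cell types in the subunit results was not tested. In bulk RNA, fewer cells of a type and less RNA per cell cannot be told apart.

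Oxidative phosphorylation couples the oxidation of NADH and succinate to the synthesis of ATP. Complexes I and II pass electrons to ubiquinone, complex III passes them to cytochrome c, complex IV hands them to oxygen, and complex V (ATP synthase) uses the proton gradient built by complexes I, III and IV. Heart muscle relies on it for nearly all of its ATP, and several complex IV subunits exist as a ubiquitous isoform and a form found in heart and skeletal muscle. Further subunits are encoded in mitochondrial DNA, and those were not analysed here, since none was found by symbol among the genes in the table.

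As a set, the subunits held a sizeable share of the transcripts of the cultures. FPKM values, which are scaled by transcript length as well as by depth and so allow levels of different genes to be added, placed 9.78 ± 0.428% of all FPKM in the 81 members in siNeg (mean ± SD, n = 3). The share was 8.19 ± 0.422% in siNeg PE and 8.35 ± 0.193% in siSlc39a2, and it was 6.33 ± 0.251% in siSlc39a2 PE. Complex IV held the largest part in siNeg, 3.49 ± 0.227%, and complex V 3.19 ± 0.0735%, against 2.14 ± 0.0868% for complex I, 0.684 ± 0.0431% for complex III and 0.267 ± 0.00147% for complex II. In siSlc39a2 PE these shares were 2.18 ± 0.0721%, 2.01 ± 0.0926%, 1.50 ± 0.0677%, 0.436 ± 0.0163% and 0.198 ± 0.00454%. The members with the highest mean FPKM over all samples were Cox6a2, the muscle isoform of a complex IV subunit, at 4267, and Atp5f1b, the catalytic β subunit of ATP synthase, at 3182. The lowest were Cox4i2 at 1.29 and Atp5s, a factor coupled to ATP synthase, at 4.71. Members differed in level by more than 3 orders of magnitude, with a median of 413 FPKM over all 81.

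Every complex stood highest in siNeg and lowest in siSlc39a2 PE. The mean log2 CPM of the members, set to 0 at the siNeg mean, was 0 ± 0.16 in siNeg (SD over 3 samples), -0.34 ± 0.11 in siNeg PE and -0.35 ± 0.056 in siSlc39a2, with the lowest value, -0.69 ± 0.10, in siSlc39a2 PE. For complex I the group means were -0.35 ± 0.11, -0.27 ± 0.066 and -0.66 ± 0.12 in the same order of the last 3 groups. Complex II stood at -0.34 ± 0.12, -0.31 ± 0.033 and -0.62 ± 0.073, and complex III at -0.27 ± 0.090, -0.44 ± 0.053 and -0.69 ± 0.088. Complex IV stood at -0.34 ± 0.13, -0.49 ± 0.035 and -0.80 ± 0.087, and complex V at -0.34 ± 0.092, -0.31 ± 0.075 and -0.66 ± 0.11. In each of the 5 complexes the siNeg samples lay above, and the siSlc39a2 PE samples below, all samples of the other groups. No p is given for these means, because the members were chosen with earlier results of the data known.

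**Figure D1:**
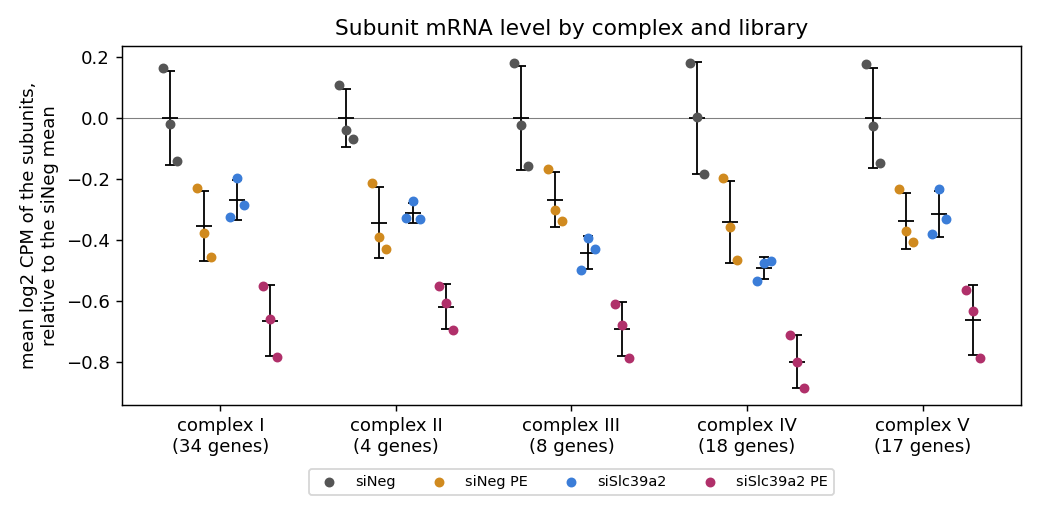
Mean log2 CPM of the subunit genes of each complex in every library, relative to the mean of the siNeg libraries (vertical axis), with points for libraries and black bars for the group mean ± SD. In each complex the siSlc39a2 PE libraries lie lowest, and the mean over all 81 genes is -0.69 in that group.

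PE lowered most of the subunits in cells with control siRNA. Between siNeg PE and siNeg, 60 of 81 members were lower at an adjusted p below 0.05 (edgeR quasi-likelihood test, Benjamini-Hochberg over all 13967 genes tested), where 25.7% of all genes tested were lower, and 1 was higher, where 24% of all genes were. The median log2 fold change was -0.38, or -23.2%, against -0.01 over all genes. In 58 members each siNeg PE sample lay below each siNeg sample, which held for 30.5% of all genes. By complex, 29 of 34 were lower in complex I, 3 of 4 in complex II, 4 of 8 in complex III, 13 of 18 in complex IV and 11 of 17 in complex V. At the stricter limit that the study used, a log2 fold change past 1 or -1 as well, 2 members were called, Cox8b (lower) and the record named Cox7a1 (higher), where 6.6% of all genes were. The change of the set was thus broad and shallow, and all but those 2 members changed by less than 2-fold. With limma on quantile-normalised values the number of lower members was 34 with log2(FPKM + 0.1) and 39 with log2(count + 1).

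Knockdown of Slc39a2 without PE also lowered most of the subunits. Between siSlc39a2 and siNeg, 56 of 81 members were lower, against 26.4% of all genes, and 1 was higher, against 22.8%. The median log2 fold change was -0.36, or -22.1%, against -0.02 over all genes. In 56 members each siSlc39a2 sample lay below each siNeg sample, which held for 30.6% of all genes. The lower members were 21 of complex I, 3 of complex II, 6 of complex III, 14 of complex IV and 12 of complex V. Only Cox6b2 passed the stricter limit, which 9.78% of all genes did. Scaling to total counts raised the median of all genes to 0.13 and left 36 members lower with a median of -0.21. Under that scaling as under the main one, 75 of 81 members were below the median of all genes. A change of scaling shifts all genes nearly alike, so that number could hardly change. It was 55 with limma on quantile-normalised log2(FPKM + 1), 62 on log2(count + 1) and 61 with the length trend described below removed. Without siSlc39a2 replicate 3, the library with the fewest counts, 37 members were called lower, and limma on quantile-normalised values gave 32 to 37.

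The knockdown was also compared in the presence of PE. Between siSlc39a2 PE and siNeg PE, 57 of 81 members were lower, against 28.1% of all genes, and 0 were higher, against 29.2%. The median log2 fold change was -0.39, or -23.7%, against 0.01 over all genes, and 58 members did not overlap in the downward direction, which held for 31.7% of all genes. Complex III had the lowest median, -0.50, with 6 of 8 members lower, and complex I the highest, -0.32, with 23 of 34 lower. The stricter limit was passed by 3 members, Cox6b2, Cox8b and the record named Cox7a1, all lower, where 11.6% of all genes passed it. With the length trend described below removed, 0 members passed it, against 11.4% of all genes.

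PE was also compared after knockdown. Between siSlc39a2 PE and siSlc39a2, 62 of 81 members were lower, against 29.3% of all genes, and 3 were higher, against 30.7%. The median log2 fold change was -0.38, or -23.1%, and in 67 members each siSlc39a2 PE sample lay below each siSlc39a2 sample, which held for 32.6% of all genes. The higher members were Ndufs1, Uqcrc2 and the record named Cox7a1, and without siSlc39a2 replicate 1 or without replicate 2 only 1 member was called higher. Cox8b (lower) and that record (higher) passed the stricter limit, which 10.5% of all genes did.

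In all 4 comparisons together, 44 members were lower each time, against 10.3% of all genes tested. They were 17 of 34 genes of complex I, 3 of 4 of complex II, 4 of 8 of complex III, 10 of 18 of complex IV and 10 of 17 of complex V. A further 12 members were lower in none of the 4, namely Ndufb3, Ndufs1, Sdhb, Uqcrb, Uqcrc2, Cox4i2, Cox7b, Cox7c, Atp5f1, Atp5if1, Atp5pf and Atp5s, and 9 of these passed the test in neither direction.

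**Figure D2:**
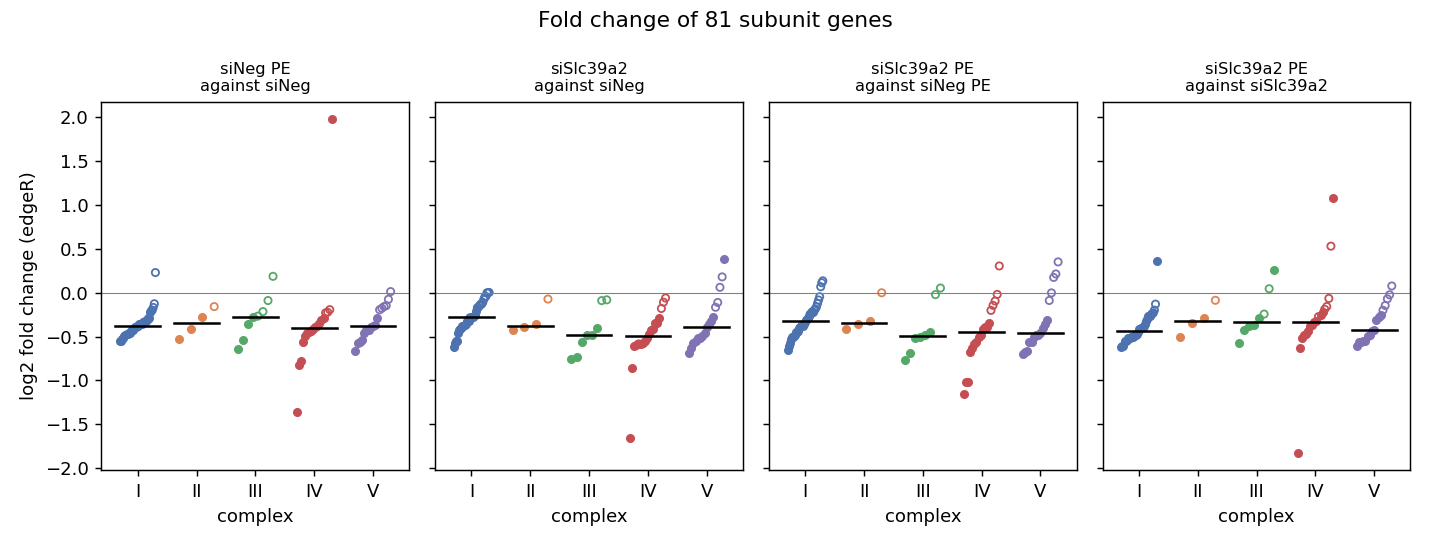
Log2 fold change of the 81 subunit genes (vertical axis) by complex in the 4 comparisons, with filled points for genes at an adjusted p below 0.05, open points for the others and black lines for the median of each complex. Most points lie between 0 and -1 in every panel, and complex IV holds those farthest from 0.

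The PE effect was also set side by side in cells without and with knockdown, which share no sample. It was lower in both for 58 members, which is 58 of the 60 lower in siNeg cells and of the 62 lower in siSlc39a2 cells, where 20.7% of all genes were lower in both. Across the 81 genes Pearson's r of the log2 fold changes was 0.80, and 0.65 over the 79 genes that changed by less than 1 in both. The knockdown effect was lower both without and with PE for 52 members, of 56 and 57, against 21.1% of all genes, with r = 0.73, or 0.77 over the 78 genes within 1. Genes are not independent replicates, and fold changes of genes of like length or level can move together, so these values are descriptions.

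Whether PE acted differently after knockdown was tested by the interaction. It passed an adjusted p of 0.05 for 0 of 81 members, where 3.61% of all genes passed it, and by DESeq2 it also passed for 0. At an unadjusted p below 0.05 there were 3 members. Without any interaction a share of 0.05 of tests would pass that limit, so 3 of 81 do not stand out. The smallest adjusted p was 0.196. The 3, named because they are so few, were Cox7a2l2 (0.76 ± 0.28 SE), Cox4i2 (0.89 ± 0.36) and Cox8b (-0.47 ± 0.20), on the log2 scale. The median interaction over the members was -0.01. For Cox8b the interaction had an adjusted p of 0.258 in that fit and of 0.0109 once a trend with transcript length, described below, was removed (-0.47), and it also passed with the replicate number as a block. Set against siNeg directly, a comparison added after the data had been seen, siSlc39a2 PE had 71 members lower, against 37.3% of all genes, and 2 higher, against 38%, or 1 higher without siNeg replicate 3. The median was -0.76, or -41.1%, and 72 members did not overlap in the downward direction, which held for 38.2% of all genes. A log2 fold change below -1 was reached by 15 members, against 12.1% of all genes, but by 4 members, against 13.6%, once the length trend described below was removed.

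**Figure D3:**
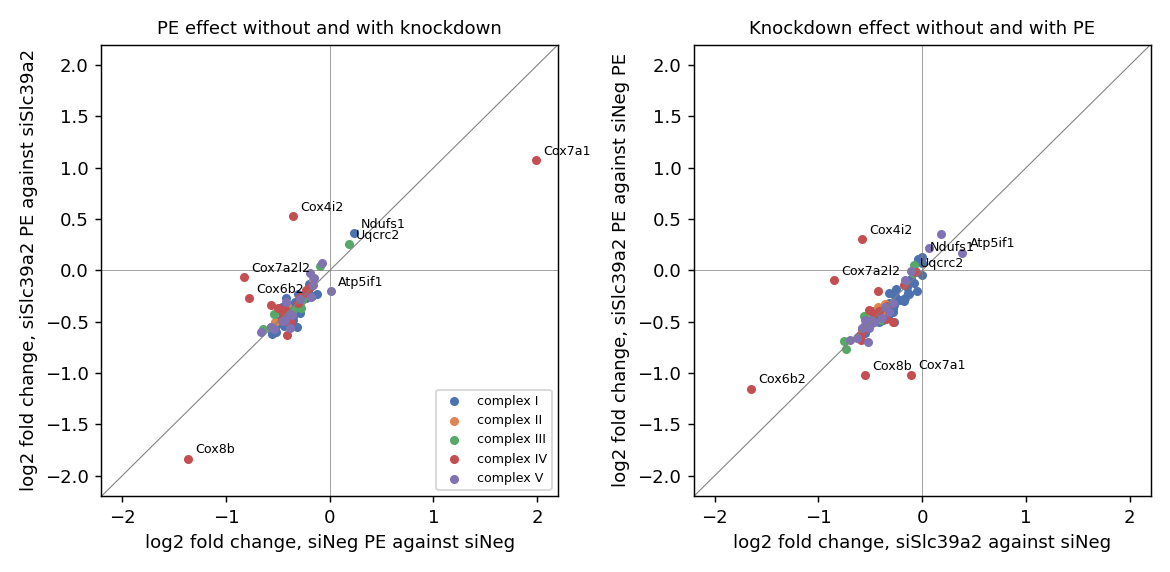
Log2 fold changes of the 81 subunit genes in pairs of comparisons that share no sample, with the PE effect without knockdown (horizontal) and after it (vertical) on the left, and the knockdown effect without PE (horizontal) and with it (vertical) on the right; the diagonal marks equal effects. Most genes lie near the diagonal below 0. The height above the diagonal is the same interaction in both panels, so Cox4i2 and Cox7a2l2, which lie above it, do so in each. Their interactions did not pass the test after adjustment.

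Complex I takes electrons from NADH through the flavoprotein subunits Ndufv1 and Ndufv2 and a chain of iron-sulphur centres in subunits such as Ndufs1, Ndufs7 and Ndufs8. Ndufv1, which binds NADH and FMN, had 696, 655 and 659 CPM in siNeg, 490, 465 and 443 in siNeg PE, 437, 461 and 410 in siSlc39a2 and 316, 298 and 278 in siSlc39a2 PE. The siSlc39a2 PE samples were lower than all others and those of siNeg higher than all others. Its log2 fold change was -0.52 ± 0.07 with PE in siNeg cells (adjusted p = 6.83e-05), -0.62 ± 0.07 after knockdown (8.77e-06), -0.65 ± 0.07 after knockdown under PE (5.35e-06) and -0.55 ± 0.07 with PE after knockdown (2.58e-05). Ndufv1 had the lowest fold change of complex I in both knockdown comparisons. Ndufs3 fell most in complex I with PE after knockdown, by 0.62 ± 0.10 (adjusted p = 0.000199), and Ndufv3, an accessory subunit of the flavoprotein part, fell most with PE in siNeg cells, by 0.56 ± 0.09 (adjusted p = 0.000525).

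Ndufs1, the largest of the iron-sulphur subunits, went the other way. It had 261, 290 and 278 CPM in siNeg, 319, 315 and 339 in siNeg PE, 255, 264 and 313 in siSlc39a2 and 318, 352 and 399 in siSlc39a2 PE. Both PE groups lay above their untreated partners without overlap. The increase with PE after knockdown passed the test (0.36 ± 0.09, adjusted p = 0.00446), while that in siNeg cells did not (0.23 ± 0.09, adjusted p = 0.0528), and the difference between these effects was not called. Its counts are not whole numbers, so that it shares reads with another gene and its values are uncertain.

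Other core subunits of complex I moved with the majority. Ndufs7 and Ndufs8 were lower in all 4 comparisons, with log2 fold changes of -0.33 to -0.54. The counts of Ndufs7 are not whole, so it is uncertain like Ndufs1. Ndufv2 was lower with PE in both backgrounds (-0.33 and -0.31), and its knockdown effects of -0.11 and -0.08 did not pass the test and were above 0 under some other settings. Ndufs4, an accessory subunit, was also lower with PE in both (-0.22 and -0.27), and its knockdown effects of -0.08 and -0.12 did not pass. Whether these genes respond differently to PE and to knockdown was not tested. The members of complex I reached from -0.62 to 0.00 in the knockdown comparison without PE.

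Complex II, succinate dehydrogenase, is the only complex with all of its subunits encoded in the nucleus and also works in the tricarboxylic acid cycle. Sdha, the flavoprotein, had 773, 791 and 805 CPM in siNeg, 694, 634 and 631 in siNeg PE, 584, 611 and 605 in siSlc39a2 and 501, 495 and 473 in siSlc39a2 PE. No pair of groups overlapped, and Sdha fell by 0.27 ± 0.06 with PE in siNeg cells (adjusted p = 0.00168) and by 0.40 ± 0.06 after knockdown (adjusted p = 7.82e-05). The membrane anchors Sdhc and Sdhd fell in all 4 comparisons, by 0.33 to 0.53 and by 0.34 to 0.43. Sdhb, the iron-sulphur subunit, had 401, 349 and 345 CPM in siNeg and 356, 322 and 302 in siSlc39a2 PE. Its groups overlapped in all comparisons, with log2 fold changes between 0 and -0.16 that did not pass the test and that were above 0 under several other settings.

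Complex III passes electrons from ubiquinol to cytochrome c. Uqcr11, a small accessory subunit, had 567, 467 and 385 CPM in siNeg, 339, 298 and 272 in siNeg PE, 280, 303 and 257 in siSlc39a2 and 199, 197 and 169 in siSlc39a2 PE. It had the lowest fold change of the complex with PE in siNeg cells (-0.64 ± 0.13, adjusted p = 0.00139), after knockdown (-0.76 ± 0.13, adjusted p = 0.000334) and with PE after knockdown (-0.57 ± 0.13, adjusted p = 0.00195). Uqcrh, the hinge protein next to cytochrome c1, had 292, 233 and 208 CPM in siNeg, 229, 204 and 198 in siNeg PE, 137, 158 and 145 in siSlc39a2 and 131, 127 and 114 in siSlc39a2 PE. All knockdown samples were thus lower than all control samples, with -0.73 ± 0.11 without PE and -0.76 ± 0.11 with it (adjusted p = 0.000154 and 0.0001), while the PE effects of -0.22 and -0.24 did not pass. The Rieske iron-sulphur protein Uqcrfs1 and the core protein Uqcrc1 were lower in all 4 comparisons, by 0.28 to 0.49 and by 0.36 to 0.50.

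Uqcrc2, the partner of Uqcrc1 in the core of complex III, did not follow it. It had 349, 336 and 349 CPM in siNeg, 391, 381 and 406 in siNeg PE, 305, 299 and 369 in siSlc39a2 and 361, 384 and 416 in siSlc39a2 PE. It was higher with PE after knockdown (0.26 ± 0.08, adjusted p = 0.0148), although the samples of these groups overlapped, and the knockdown effects of -0.09, which turned above 0 with total counts and with limma, and -0.02 did not pass the test. Like Ndufs1 it has counts that are not whole and is uncertain. Uqcrb, also uncertain, lay between -0.09 and 0.05 in all 4 comparisons.

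Complex IV held the members that changed most. Cox8b, the heart and muscle isoform of subunit 8, had 320, 284 and 218 CPM in siNeg, 123, 104 and 92.4 in siNeg PE, 180, 210 and 171 in siSlc39a2 and 57.6, 52.4 and 47.6 in siSlc39a2 PE. No pair of groups overlapped. It was at 0.389 of the siNeg level in siNeg PE (log2 fold change -1.36 ± 0.14, adjusted p = 1.29e-05) and at 0.192 of it in siSlc39a2 PE (-2.38 ± 0.15, adjusted p = 1.47e-08). The knockdown effect was -0.55 ± 0.14 without PE (adjusted p = 0.00522) and -1.02 ± 0.14 with it (adjusted p = 6.41e-05), and PE after knockdown gave -1.83 ± 0.14 (adjusted p = 6.55e-07). All counts of Cox8b were whole, and after removal of the length trend its fold changes were -1.05 with PE in siNeg cells and -0.28 after knockdown.

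Its ubiquitous counterpart Cox8a, whose counts are not whole, changed less with PE, by -0.46 ± 0.11 in siNeg cells and -0.48 ± 0.11 after knockdown, and by -0.60 ± 0.11 and -0.63 ± 0.11 with the knockdown. Of the summed FPKM of the pair, Cox8b held 34.9 ± 1.71% in siNeg and 22.5 ± 0.721% in siNeg PE, against 35.6 ± 1.89% in siSlc39a2 and 18.0 ± 0.162% in siSlc39a2 PE (SD, n = 3). The PE groups did not overlap their untreated partners, and siSlc39a2 PE lay below siNeg PE without overlap, whereas siNeg and siSlc39a2 overlapped. Cox6a2, the muscle form of subunit 6a, held 74.5 ± 0.478%, 71.9 ± 0.713%, 75.2 ± 0.809% and 69.6 ± 0.544% of its pair with Cox6a1. Here too the PE groups lay below their partners, and siSlc39a2 PE below siNeg PE, without overlap. An exact permutation test (two-sided) of these shares gave p = 0.1 for each PE comparison and for knockdown under PE in both pairs. That is the smallest value that 3 against 3 samples allow. After adjustment over the 20 comparisons of 5 isoform pairs it was 0.167, so that the design cannot pass the threshold here.

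Cox6a2, the most abundant member, had 2471, 1990 and 1925 CPM in siNeg and 1218, 1086 and 1083 in siSlc39a2 PE, and fell by 0.91 ± 0.10 between them (adjusted p = 3.57e-06). The knockdown effect without PE was -0.28 ± 0.10 (adjusted p = 0.0336) but 0.084 with limma on quantile-normalised log2(count + 1). Cox4i1, the main form of the largest nuclear subunit, fell in all 4 comparisons, by 0.38 to 0.47. Cox7a2, Cox7a2l and Ndufa4 were also lower in all 4. The counts of Cox7a2 are not whole, and it is uncertain for that reason. Cox7a2l takes part in joining complexes III and IV into supercomplexes. It had 465, 391 and 360 CPM in siNeg and 197, 199 and 186 in siSlc39a2 PE, with fold changes of -0.38 to -0.68. Cox7b and Cox7c, in contrast, had fold changes of -0.02 to -0.23 in the 4 comparisons, none of which passed the test, and all of them turned above 0 without the length trend.

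Other isoforms of complex IV were scarce in these cells. Cox6b2, known from testis, had 2.17, 1.78 and 1.69 CPM in siNeg, 1.18, 1.30 and 0.807 in siNeg PE, 0.726, 0.474 and 0.585 in siSlc39a2 and 0.298, 0.517 and 0.654 in siSlc39a2 PE. Its knockdown effect was -1.65 ± 0.29 without PE (adjusted p = 0.000431) and -1.15 ± 0.31 with it (adjusted p = 0.00607), from few counts. Cox4i2, known as the lung and hypoxia form of subunit 4, stayed at 0.585 to 1.10 CPM and was called in none of the 4 comparisons. The record named Cox7a1 had 0.553, 0.758 and 0.355 CPM in siNeg, 2.51, 2.53 and 1.61 in siNeg PE, 0.449, 0.339 and 0.780 in siSlc39a2 and 1.12, 1.00 and 1.16 in siSlc39a2 PE. It was higher with PE in both backgrounds (1.99 ± 0.32, adjusted p = 0.000385, and 1.08 ± 0.34, adjusted p = 0.0153). Its counts are few and not whole, and RefSeq now gives the name of this muscle isoform to another record, which the files list under a LOC symbol with 80.9 to 137 counts and log2 fold changes of -0.26 to 0.09 in the 4 comparisons, none of which passed the test. Which of the records stands for the muscle isoform was not settled here. Cox7a2l2, whose counts are not whole, had -0.82 with PE in siNeg cells and -0.85 after knockdown, and is uncertain for that reason.

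**Figure D4:**
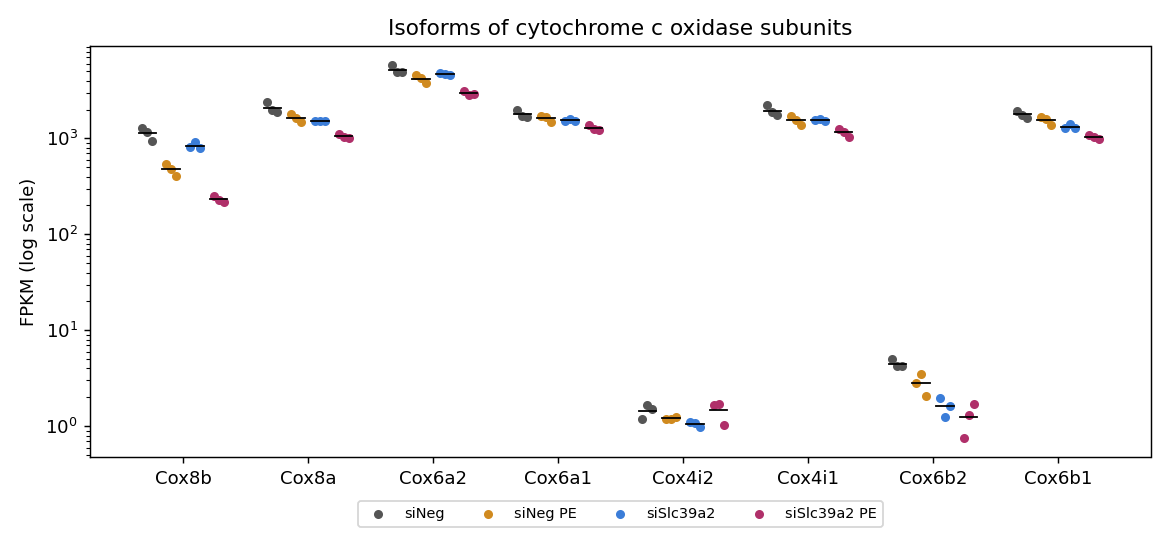
FPKM (log scale) of isoforms of complex IV subunits 8, 6a, 4 and 6b in every library, with black lines for group means. Cox8b falls from a siNeg mean of 1125 FPKM to 232 in siSlc39a2 PE, and Cox4i2 and Cox6b2 stay between 0.75 and 4.97 FPKM.

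Complex V makes ATP in a rotary catalytic head formed by the α, β and γ subunits, which is driven by a ring of c subunits in the membrane. Atp5f1a, the α subunit, had 4483, 4214 and 4210 CPM in siNeg, 3145, 2835 and 2750 in siNeg PE, 2692, 2751 and 2547 in siSlc39a2 and 1938, 1798 and 1707 in siSlc39a2 PE. It fell by 0.56 ± 0.07 with PE in siNeg cells (adjusted p = 5.08e-05) and by 0.69 ± 0.07 after knockdown (adjusted p = 4.27e-06), and these were -0.54 and -0.72 without the length trend. Atp5f1b, the β subunit, had 7434, 7074 and 7060 CPM in siNeg, 5657, 5172 and 4918 in siNeg PE, 5233, 5497 and 4917 in siSlc39a2 and 3923, 3766 and 3446 in siSlc39a2 PE. Its fold changes were -0.45 ± 0.07 with PE and -0.46 ± 0.07 after knockdown (adjusted p = 0.000327 and 0.000187), although the latter was 0.069 with limma on quantile-normalised log2(FPKM + 1). With its siNeg level of 0.656 ± 0.0248% of all FPKM, Atp5f1b alone went to 0.384 ± 0.0145% in siSlc39a2 PE.

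The 3 genes that encode the c subunit, Atp5mc1, Atp5mc2 and Atp5mc3, were lower in all 4 comparisons, with fold changes of -0.39 to -0.69. Atp5f1e, the ε subunit, had 409, 323 and 282 CPM in siNeg and 178, 148 and 131 in siSlc39a2 PE, and it had the lowest fold change of the complex with PE in both backgrounds (-0.66 and -0.60). The inhibitor of ATP hydrolysis, Atp5if1, had 156, 125 and 117 CPM in siNeg, 144, 134 and 123 in siNeg PE, 172, 183 and 164 in siSlc39a2 and 153, 154 and 146 in siSlc39a2 PE. It was the only member called higher after knockdown without PE (0.39 ± 0.10, adjusted p = 0.00503), and with PE the knockdown effect of 0.17 did not pass. Its counts are not whole. Atp5f1 (subunit b), Atp5pf and Atp5s, which are uncertain for the same reason, had fold changes of -0.19 to 0.35 that did not pass the test in any of the 4 comparisons.

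Subunit transcripts are short, and short genes as a class moved too. The median transcript length implied by counts and FPKM was 535 bases for the members and 2402 for all genes, and 64 of 81 members were under 1000 bases. The 1273 other genes under 1000 bases had a median log2 fold change of -0.21 with PE in siNeg cells, -0.14 after knockdown, -0.12 after knockdown under PE and -0.21 with PE after knockdown. The 64 short members stood at -0.39, -0.36, -0.39 and -0.38 in the same comparisons. The other short genes also differed between libraries of 1 group, with medians of 0.038 to 0.33 in siNeg and -0.26 to -0.068 in siSlc39a2 PE relative to the mean of all libraries. The 17 members of 1000 bases or more had medians of -0.32, -0.36, -0.36 and -0.34, while the 5329 other genes of that length, up to the longest member, had -0.08, -0.01, -0.0035 and -0.07.

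A fit that first removed, library by library, the trend of expression with length seen in the genes outside the set left fewer members lower. With PE in siNeg cells it called 49 lower, against 28.3% of all genes, with a median of -0.18. After knockdown it called 51, against 30.2%, with a median of -0.24. After knockdown under PE it called 55, against 31.6%, with -0.28, and with PE after knockdown 45, against 31.8%, with -0.19. For siSlc39a2 PE against siNeg it called 61, against 39.8%, with -0.46. For the 17 longer members the median with PE in siNeg cells went from -0.32 to -0.27 and after knockdown from -0.36 to -0.33. Sdha (2191 bases) had -0.44 and Ndufv1 (1393 bases) -0.63 after knockdown in this fit. For the 64 short members the medians went from -0.39 to -0.17 and from -0.36 to -0.23, and for Ndufa12 (463 bases) the PE effect of -0.13, which had not passed the test, became 0.11. The counts of Ndufa12 are not whole, and it is uncertain. The cause of the length trend was not tested. This fit was chosen after the data had been seen.

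**Figure D5:**
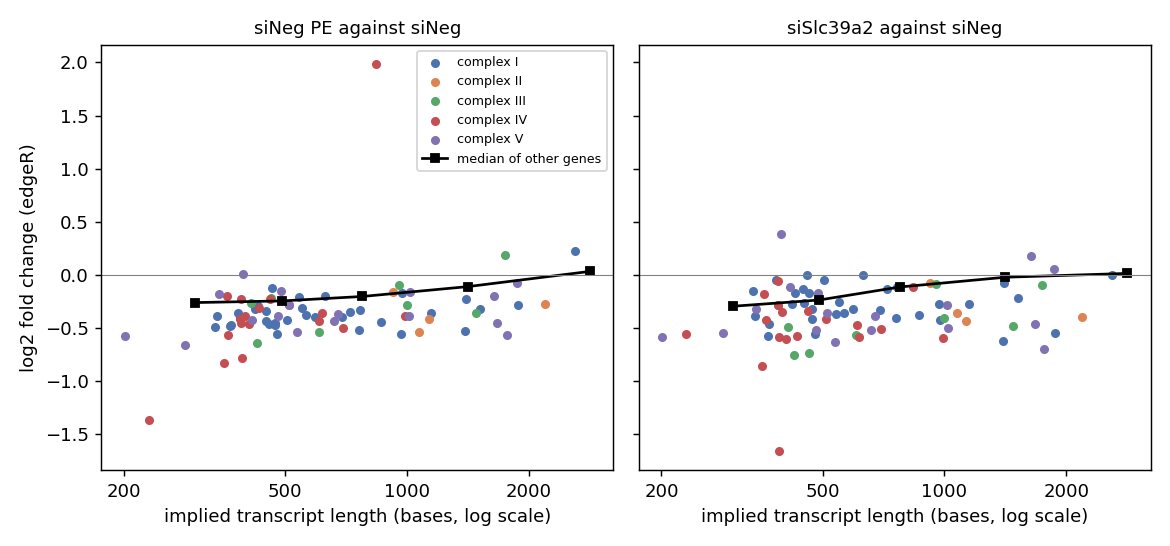
Log2 fold change (vertical) against implied transcript length in bases (horizontal, log scale) for PE in siNeg cells (left) and knockdown without PE (right), with coloured points for the subunit genes and black squares for the median of other genes in classes of length. Other genes under 1000 bases have medians of -0.21 and -0.14, and most subunits lie below the black line.

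Other genes of the pathway were read from fixed lists. Over all genes tested, 25.7% were lower and 24% higher with PE in siNeg cells, and 26.4% lower and 22.8% higher after knockdown. Of the members themselves, 12 of 15 catalytic and redox core subunits were lower with PE in siNeg cells and 11 after knockdown, and 12 and 13 of 16 members of isoform sets. Of 7 tested genes listed to supplement the symbol rule, 4 were lower and 1 higher with PE in siNeg cells, and 2 were lower and 2 higher after knockdown. That list also holds Atp5if1, a member counted above and 1 of the 2 higher after knockdown, and the ATP synthase assembly factors Atpaf1, the 1 higher with PE, and Atpaf2. Cyc1 (cytochrome c1 of complex III) was lower in both (-0.31 ± 0.08 and -0.38 ± 0.08, adjusted p = 0.00631 and 0.0017). Assembly factors build the complexes but are not part of them. Of 45 tested, 18 were lower and 7 higher with PE in siNeg cells, with a median of -0.15, and 9 were lower and 10 higher after knockdown, with a median of -0.07, so that the shares after knockdown were near those of all genes. Ndufaf4, an assembly factor of complex I, was higher in both (0.95 ± 0.17 and 0.84 ± 0.17, adjusted p = 0.000747 and 0.0014).

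Among 75 mitochondrial ribosomal protein genes, which serve the translation of the subunits encoded in mitochondria, 34 were lower and 6 higher with PE in siNeg cells (median -0.20), and 23 lower and 10 higher after knockdown (median -0.02). Of 12 tricarboxylic acid cycle genes, 5 were lower and 2 higher with PE (median -0.09), and 9 lower and 0 higher after knockdown (median -0.37), among them Mdh2 (-0.67 ± 0.07, adjusted p = 3.43e-06). Of 18 regulators of respiratory genes, 4 were lower and 2 higher with PE, and 1 lower and 5 higher after knockdown. Epas1, a hypoxia-inducible factor, had the largest change of this list in both (-1.21 ± 0.06, adjusted p = 1.6e-08, and -1.48 ± 0.06, adjusted p = 2.25e-10). Perm1, a muscle coregulator of respiratory genes, was lower with PE (-0.74 ± 0.10, adjusted p = 9.94e-05), and Tfam, which maintains mitochondrial DNA, was higher after knockdown (0.39 ± 0.08, adjusted p = 0.00198). The medians of all genes tested were within 0.02 of 0 in these comparisons.

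Promoter sequence was looked at because so many of the members moved together. RefSeq (build GRCr8) gave the 250 bases before the start of 71 members, and 10 had no entry, among them Ndufa8, Ndufb9, Uqcr11, Uqcrb, Cox4i2, Cox6a1, Cox6c, Cox7a1 and Atp5pd. Motifs of 4 factors known to act on respiratory genes were searched on both strands, GCGCNTGCG for NRF1, CCGGAAGT for GABP of the ETS family, TCAAGGTCA for the oestrogen-related receptors (ERR) and AANATGGCG for YY1. The NRF1 motif was in 15 of 71 members (21.1%), against 5.03% of all 33469 windows of that length, which also include non-coding genes. The GABP motif was in 8 (11.3% against 3.10%), the YY1 motif in 3 (4.23% against 1.38%) and the ERR motif in 1 (1.41% against 0.388%). NRF1 matches on opposite strands can overlap. Of the 25 members with any of the motifs 14 were lower in all 4 comparisons, and of the 46 without, 27. Median fold changes with PE in siNeg cells were -0.39 with and -0.38 without a motif, and after knockdown -0.40 and -0.36. Of the 3 holders of the YY1 motif 0 were lower in all 4 comparisons, with medians of -0.15 and -0.048, and of the 8 with the GABP motif 3 were, against 10 of the 15 with the NRF1 motif and the 1 with the ERR motif.

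The windows of 5 members are printed, to set the pair of subunit 8 isoforms beside a core subunit that fell, a core subunit that did not and the holder of the ERR motif. Capitals mark the motif matches. They are a GABP match on the opposite strand at 58 to 51 and at 20 to 13 bases before the start in Cox8a, NRF1 matches at 64 to 56 and 39 to 31 bases in Uqcrc1, GABP at 200 to 193 and YY1 at 30 to 22 bases in Ndufs1, both on the opposite strand, and ERR at 57 to 49 bases on the opposite strand in Atp5mc3. The Cox8b window held none of the 4 motifs in these letters. The windows lie at chr1:205408274-205408523 (minus strand) for Cox8b, chr1:213833624-213833873 (minus) for Cox8a, chr8:118467973-118468222 (plus) for Uqcrc1, chr9:72073606-72073855 (minus) for Ndufs1 and chr3:79220665-79220914 (minus) for Atp5mc3, and each is written 5′ to 3′ on the strand of its gene. A match in letters is not evidence that a factor binds there.
Cox8b: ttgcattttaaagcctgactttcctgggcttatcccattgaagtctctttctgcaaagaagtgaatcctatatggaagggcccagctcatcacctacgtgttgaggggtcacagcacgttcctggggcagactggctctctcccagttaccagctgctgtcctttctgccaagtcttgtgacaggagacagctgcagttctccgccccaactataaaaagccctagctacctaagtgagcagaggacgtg
Cox8a: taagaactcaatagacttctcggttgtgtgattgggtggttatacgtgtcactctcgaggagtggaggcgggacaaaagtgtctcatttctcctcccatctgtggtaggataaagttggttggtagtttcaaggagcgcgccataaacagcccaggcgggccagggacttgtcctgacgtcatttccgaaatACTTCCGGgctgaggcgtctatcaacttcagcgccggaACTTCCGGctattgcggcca
Uqcrc1: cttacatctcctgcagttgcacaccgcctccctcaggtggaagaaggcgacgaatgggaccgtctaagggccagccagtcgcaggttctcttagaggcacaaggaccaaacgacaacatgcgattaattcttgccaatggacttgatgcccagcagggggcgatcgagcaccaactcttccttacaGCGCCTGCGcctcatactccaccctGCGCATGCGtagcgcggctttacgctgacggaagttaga
Ndufs1: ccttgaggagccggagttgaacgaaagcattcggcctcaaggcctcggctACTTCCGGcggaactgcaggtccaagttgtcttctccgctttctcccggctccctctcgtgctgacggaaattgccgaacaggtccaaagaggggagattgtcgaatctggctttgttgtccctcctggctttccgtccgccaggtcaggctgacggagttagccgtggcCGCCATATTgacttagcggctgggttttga
Atp5mc3: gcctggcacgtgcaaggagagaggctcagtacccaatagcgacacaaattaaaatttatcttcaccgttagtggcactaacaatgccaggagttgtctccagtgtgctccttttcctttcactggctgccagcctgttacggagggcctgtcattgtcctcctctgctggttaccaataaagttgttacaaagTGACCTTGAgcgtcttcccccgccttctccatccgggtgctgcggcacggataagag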

How the data were processed

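RNA-seq of 12 samples (4 groups, 3 per group) was analysed from tables of expected counts and FPKM per gene. The authors aligned reads and estimated the deposited expected counts per gene, and the submitters' processing notes name HISAT, Bowtie2 and Rnor_6.0. The deposited FPKM values were scaled by the authors for transcript length and library depth. The study describes the replicates as independent. PE lasted 36 h per the labels, while the study's methods give another time.

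Here expected counts were rounded and tested with edgeR 4.0.16 (R 4.3.3), using TMM, its filter on low counts (13967 of 18483 genes kept) and the quasi-likelihood test in 1 fit of all groups, with Benjamini-Hochberg adjustment over all genes tested. A gene was called at an adjusted p below 0.05, and calls that also passed a log2 fold change of 1, as the study required, were counted beside. SE is the log2 fold change divided by the square root of F. CPM used TMM library sizes, and lengths were derived from counts and FPKM. Libraries held 24065539 to 28603854 counts, and p-values measure only the spread between these samples.

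The members and gene lists were chosen with earlier results of these data known. Members named in the text were, by rule, those with the extreme fold changes of each complex and comparison the core and isoform subunits and the 5 highest in mean FPKM, and for the pathway lists some of the 3 largest called changes each, and others were named after their values were seen. Members whose counts were not whole within a tolerance of 1e-09 (29 of 81) share reads with other genes and are uncertain. The values of 1 member are not reported here. Alternatives were RLE size factors, total counts, DESeq2 1.42.0, no filter, the compared groups alone, the replicate number as a block, limma 3.58.1 on quantile-normalised log2(FPKM + 1), log2(FPKM + 0.1) and log2(count + 1), members with whole counts only, and leaving out each library. Removal of the length trend and the comparison of siSlc39a2 PE with siNeg were added after the data were seen. The scripts were tested on simulated data. Promoters came from RefSeq (GRCr8).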

Additional observations from a re-analysis of the deposited data

How the results depend on the processing

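With another scaling, DESeq2, no filter or fewer groups, the medians of the members stayed below 0 in every comparison of groups, and the depth limits members of few counts such as Cox4i2, Cox6b2 and the record named Cox7a1. The cause of the changes below was not tested. The samples were not treated as paired by replicate number, since 8 of 18 same-numbered pairs, not all, correlated above 0.1 (range -0.0904 to 0.32). Of 36 other pairs 5 did, and 7 of 12 samples correlated best with their own number, which is a hint from the data and not from the design. With the replicate block, 3 members were higher with PE in siNeg cells, 1 was higher with knockdown under PE, 4 were higher in siSlc39a2 PE against siNeg and 1, Cox8b, had a lower interaction.

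For PE in siNeg cells, the number of members called higher was 2 with RLE, 3 with total counts, DESeq2, no filter, the compared groups alone, limma on log2(count + 1) or the length trend removed, 4 with limma on FPKM and 0 among whole counts. The number lower was 34 with limma on log2(FPKM + 0.1) and 39 on log2(count + 1), and the median was -0.18 with limma on either FPKM scale and with the length trend removed. After knockdown, 2 were higher with limma on FPKM or the length trend removed and 0 among whole counts. The number lower was 36 with total counts, 37 and 33 with limma on log2(FPKM + 1) and log2(FPKM + 0.1) and 32 on log2(count + 1), with medians of -0.21, -0.15, -0.15 and -0.19, and -0.24 with the length trend removed. For knockdown under PE, 1 was higher with DESeq2, 2 with limma on FPKM and 3 with the length trend removed, where the median was -0.28. For PE after knockdown, 5 were higher with the length trend removed and 0 among whole counts, and the median was -0.28 and -0.29 with limma on FPKM and -0.19 with the length trend removed. The interaction was called lower for 2 and 1 members with limma on log2(FPKM + 1) and log2(FPKM + 0.1) and for 1 with the length trend removed, and its median was -0.15 with total counts and with limma on log2(count + 1). For siSlc39a2 PE against siNeg, 4 were higher with total counts or limma on log2(count + 1), 5 with limma on FPKM or the length trend removed and 0 among whole counts. The median there was -0.44 with limma on FPKM, -0.62 on log2(count + 1) and -0.46 with the length trend removed. Total counts moved the mean of complexes I to V after knockdown to -0.12, -0.17, -0.30, -0.35 and -0.17, and that of complex II with PE after knockdown to -0.37.

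When each library was left out, the members lower numbered 43 to 68 with PE in siNeg cells, 37 to 60 after knockdown, 50 to 58 after knockdown under PE, 46 to 65 with PE after knockdown and 68 to 71 in siSlc39a2 PE against siNeg. Those higher numbered 0 to 1 after knockdown under PE, 1 to 3 with PE after knockdown and 1 to 3 in siSlc39a2 PE against siNeg. The medians ranged from -0.45 to -0.29, -0.42 to -0.27, -0.44 to -0.32, -0.45 to -0.31 and -0.81 to -0.67.

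Of all 81 members, 77 were below 0 with PE in siNeg cells in the main fit and 68 with the length trend removed. These numbers were 77 and 69 after knockdown, 73 and 64 after knockdown under PE, and 75 and 62 with PE after knockdown. Some fold changes turned above 0, and only those of members named by rule are listed below. With limma on log2(FPKM + 1) and on log2(FPKM + 0.1) alike, these were Atp5pd (0.0097), Cox7b (0.046) and Sdhb (0.079) with PE in siNeg cells, Atp5f1b (0.069), Cox7b (0.098), Ndufv2 (0.070), Sdhb (0.10) and Uqcrc2 (0.0059) after knockdown, Cox7b (0.028) after knockdown under PE, Sdhb (0.036 and 0.037) with PE after knockdown and Atp5pf (0.12) in siSlc39a2 PE against siNeg. With limma on log2(count + 1), they were Cox6a2 (0.084), Ndufv2 (0.019), Sdhb (0.056) and Uqcrc2 (0.033) after knockdown. With total counts, they were Ndufv2 (0.037), Sdhb (0.074) and Uqcrc2 (0.056) after knockdown. With the length trend removed, they were Cox6a1 (0.011) and Cox7b (0.066) with PE in siNeg cells, Cox7b (0.014) after knockdown, Cox7b (0.063) and Ndufv2 (0.0094) after knockdown under PE, Atp5mf (0.020), Cox6a1 (0.022), Cox7b (0.11) and Sdhb (0.068) with PE after knockdown, and Atp5pf (0.16) in siSlc39a2 PE against siNeg. The interaction of Slc39a2 itself, 0.02, was -0.43 with limma on log2(FPKM + 1), 0.84 with limma on log2(count + 1), -0.48 without siSlc39a2 replicate 3 and 0.79 without replicate 1 of that group.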
